A study of Rattus norvegicus with 5 samples.

Results

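Stromal cells of cultured neonatal rat ventricle were compared between a TBX18 library and a GFP library, both collected at day 14. A cell was taken as stromal by the level of 3 fibrillar collagen genes against 3 sarcomere genes. S is the summed level of Col1a1 (ENSRNOG00000003897), Col1a2 (ENSRNOG00000011292) and Col3a1 (ENSRNOG00000003357) in a cell. M is the summed level of Tnnt2 (ENSRNOG00000033734), Actc1 (ENSRNOG00000008536) and Myh6 (ENSRNOG00000025757). Levels are in CPM, the usual unit in which the counts of a gene are scaled to the total of the cell, and cells with S > 2M were kept. The class held 11246 of the 14761 cells of both libraries, which is 7027 of 8337 cells with TBX18 and 4219 of 6424 cells with GFP. All 5 libraries of the series together held 38019 cells.

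By its title, the series concerns the reprogramming of ventricular myocytes into pacemaker cells by the transcription factor TBX18, which was delivered with an adenovirus. The cells were primary ventricular cultures from wild-type Sprague Dawley rats at postnatal day 2, and every group held myocytes as well as non-myocytes. The GFP group received an adenovirus with GFP, and the TBX18 group received an adenovirus with TBX18, for 14 days. The other libraries were GFP at day 3, TBX18 at day 3, and TBX18 with A83-01, an inhibitor of TGF-beta receptors, at 0.2 µM. For that last library the title gives day 14 and a treatment label gives 3 days, so its time with the inhibitor is uncertain. Each group is 1 library, and the labels do not say how many animals or dishes it came from. A difference between the viruses therefore cannot be told apart from a difference between 2 cultures, no test between groups was made, and the 95% intervals below cover counting error only.

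Cardiac fibroblasts are the main makers of the fibrillar collagens in the heart. Col1a1 and Col1a2 encode the chains of type I collagen, the stiff fibre of the cardiac interstitium, and Col3a1 encodes the chain of the more compliant type III collagen. When fibroblasts are held in culture or exposed to TGF-beta they can take on a myofibroblast state with more collagen and contractile protein. Tnnt2 encodes cardiac troponin T, Actc1 cardiac alpha-actin and Myh6 the alpha heavy chain of cardiac myosin, all of which belong to the contractile apparatus of myocytes. TBX18 is a T-box factor of the embryonic sinoatrial node and the epicardium, and the epicardium is a source of cardiac fibroblasts.

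A stretch of the Col1a2 promoter is shown because this gene differed most between the libraries among the 3 collagen genes that define the class. Promoter windows of RefSeq (build GRCr8, while the count tables name Rnor_6.0) were found for 4 of the 6 genes of the rule. The stretch covers chr4:33518307-33518406 on the plus strand, bases 250 to 151 before the annotated start. Capitals mark letters that match a CCAAT box, which read ATTGG because the match lies on the minus strand, and letters that match a TATA box. Whether either match acts at the annotated start was not tested.

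Col1a2: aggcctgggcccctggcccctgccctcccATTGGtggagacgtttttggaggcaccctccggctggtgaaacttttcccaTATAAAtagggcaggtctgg

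The CCAAT match lies 221 to 217 bases and the TATAAA match 170 to 165 bases before that start. In the 250 bases before the start, CCAAT was present on either strand in 34.0% of 33469 rat promoter windows and TATAAA in 12.9%. The motif GGTGTG, part of the sequence that T-box factors bind, was found in 15.4% of windows and not in that of Col1a2. The CArG box, the site of serum response factor, was found in 1.5% of windows and not in that of Col1a2. These are matches of letters and not measured binding.

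The tables list genes by Ensembl ID, and 0 of 17060 IDs matched the gene table used here. Names are therefore given only for the 6 genes of the rule and for the virus features, and other genes are described by rank and by count, with at most 2 IDs in each direction. The stromal label rests on the 3 collagen genes alone. Markers of endothelial cells, leukocytes, pericytes, epicardium and dividing cells could not be read, so cells of these types may lie in the class and their part in the results was not tested. The library totals were 137204879 UMIs with TBX18 and 104781421 with GFP, where a UMI is a tag of 1 captured RNA molecule. The class held 114620749 and 70125112 of these. The median depth of its cells was 15502 UMIs and 3802 genes with TBX18, and 15921 UMIs and 3612 genes with GFP. Both libraries shared 14 cell barcodes, 9 of them between cells of the class, against 7 to 20 for all pairs of libraries.

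The class took a larger share of the TBX18 library than of the GFP library. It made up 84.3% of cells with TBX18 (95% Clopper-Pearson interval 83.5 to 85.1) and 65.7% with GFP (64.5 to 66.8). Cells with M > 2S, the reverse class, made up 13.04% and 27.7%. With A83-01 added to TBX18 the share of cells with S > 2M was 63.3%, below that of TBX18 alone. At day 3 it was 43.4% with TBX18 and 33.2% with GFP. The cells deposited at day 3 spanned a wider range of genes per cell, so shares across days are set side by side only. A share cannot separate more stromal cells from fewer myocytes, and the values that chose the class are a description and not a test.

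**Figure D1:**
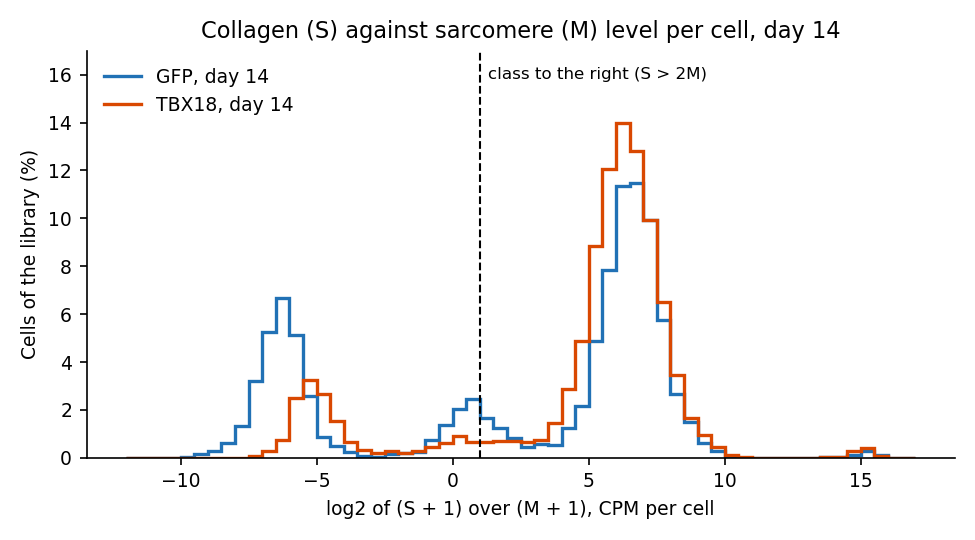
Percentage of cells of each day 14 library (y axis) by the log2 ratio of collagen to sarcomere level per cell (x axis, 1 CPM added to each sum), for GFP (blue) and TBX18 (orange). The dashed line marks the rule, and 84.3% of TBX18 cells and 65.7% of GFP cells met it.

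Few cells lay near the threshold. Just inside it, with S above 2 and up to 4 times M, were 112 cells with TBX18 and 187 with GFP. Just outside, with S above 1 and up to 2 times M, were 131 cells with TBX18 and 274 with GFP. The cells just inside had a median M of 10067 CPM with TBX18 and 11689 CPM with GFP, against 431.2 and 429.8 CPM over the whole class. Their median depths, 20397 and 21885 UMIs, also exceeded those of the class. Doublets, droplets that hold more than 1 cell, were not removed here, since the rule takes all deposited cells. A doublet caller marked 0 and 1 cells of the libraries, too few to have worked, so the alternative without the top 6% of doublet scores stands in for it.

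The 3 collagen genes differed little between the libraries. Col1a1 was at 14851 CPM with TBX18 and at 16672 CPM with GFP in summed counts of the class. Its log2 ratio of TBX18 over GFP was -0.17 (95% interval -0.17 to -0.16). Col1a2 was at 9614 CPM with TBX18 and 11489 CPM with GFP, a log2 ratio of -0.26 (-0.26 to -0.25). Col3a1 was at 11695 and 12063 CPM, a log2 ratio of -0.045 (-0.049 to -0.041). All 3 lay lower with TBX18, by at most 1.19-fold. Scaling by the median of gene ratios in place of total UMIs placed them lower still, at -0.30, -0.39 and -0.18, because the median log2 ratio over all genes was 0.13 above 0.

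The levels of single cells overlapped widely. The middle 90% of cells ranged from 6856 to 22559 CPM of Col1a1 with TBX18 and from 8668 to 25188 CPM with GFP. For Col1a2 these ranges were 4777 to 14340 CPM and 5866 to 17454 CPM. For Col3a1 they were 5296 to 19117 CPM and 5500 to 19701 CPM. Every cell of the class had a UMI of Col1a1 and of Col3a1, and 8 cells, all with GFP, had none of Col1a2. Together the 3 genes took 3.62% of the UMIs of the class with TBX18 and 4.02% with GFP.

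The collagen genes were also read in the other 3 libraries. With A83-01 added to TBX18, Col1a1 was at 7626 CPM, Col1a2 at 5152 CPM and Col3a1 at 7267 CPM, and the 3 genes took 2.0% of UMIs. At day 3 with GFP they were at 5146, 3809 and 4299 CPM in the order Col1a1, Col1a2 and Col3a1. At day 3 with TBX18 they were at 4650, 3745 and 3304 CPM. The day 3 tables were deposited in another unit and over a wider range of genes per cell, so levels across days are set side by side only.

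In the cells with M > 2S, collagen counts stood the other way. The rule limits the collagen level in these cells, so these values are a description and not a test. Col1a1 was at 586 CPM with TBX18 and at 254 CPM with GFP there, a log2 ratio of 1.20 (1.16 to 1.25). Col1a2 was at 296 and 133 CPM (log2 ratio 1.15, 1.09 to 1.21), and Col3a1 was at 454 and 190 CPM (1.25, 1.20 to 1.31). Under median-of-ratios scaling these ratios were 0.99, 0.93 and 1.04. Stromal cells made up more of the TBX18 library, and collagen RNA in M > 2S cells was 3.69% of the level in S > 2M cells with TBX18 and 1.44% with GFP. The part of free collagen RNA in these ratios was not tested.

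**Figure D2:**
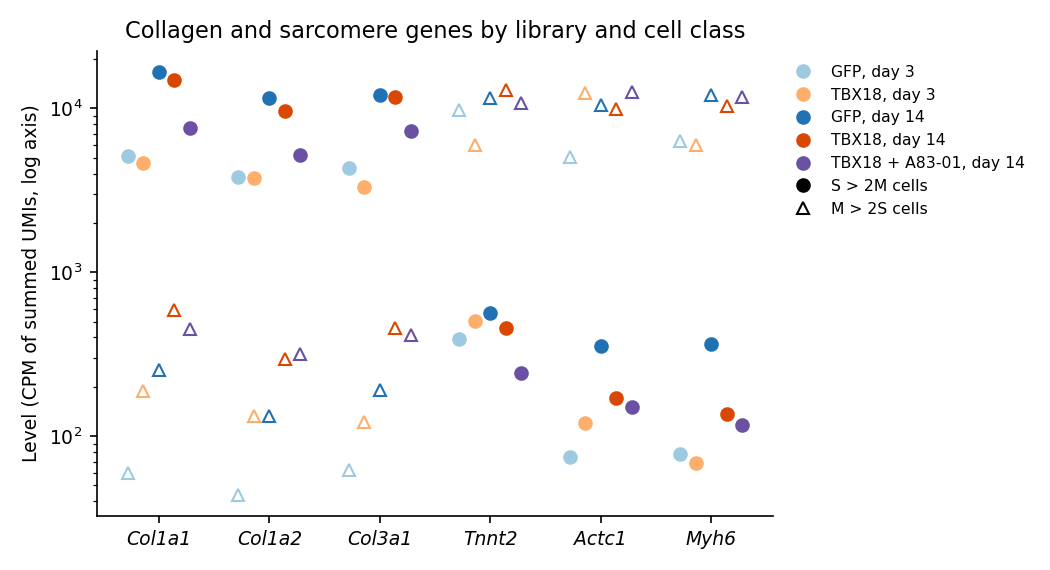
Level of each gene of the rule in summed counts (y axis, CPM on a log axis) for the 5 libraries, in S > 2M cells (filled circles) and M > 2S cells (open triangles). In S > 2M cells, Col1a1 was at 14851 CPM with TBX18 and 16672 CPM with GFP at day 14, while Myh6 was at 137 and 362 CPM.

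The sarcomere genes were present at low levels in the class, and their summed counts lay lower with TBX18. The rule limits their level in the class, so these values are a description and not a test. The median of M per cell was 431.2 CPM with TBX18 and 429.8 CPM with GFP. Myh6 was at 137 CPM with TBX18 and 362 CPM with GFP, a log2 ratio of -1.40 (-1.43 to -1.37). Actc1 was at 171 and 355 CPM, a log2 ratio of -1.05 (-1.08 to -1.02). Tnnt2 was at 458 and 568 CPM, a log2 ratio of -0.31 (-0.33 to -0.29), but this direction did not hold when the class was made stricter or likely doublets were left out. The Tnnt2 ratio was 0.29 with S > 5M, 0.20 with S > 50M and 0.035 without the top 6% of doublet scores. Actc1 and Myh6 kept their direction in these settings, at -0.27 and -0.69 with S > 50M.

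A small number of cells carried most of this signal in the GFP library. The 288 GFP cells with S up to 10 times M were 6.83% of the class and held 64.1% of its sarcomere UMIs. The 267 such TBX18 cells were 3.8% of the class and held 34.0%. Summed over the 3 genes, the level in the class was 2.32% of that in M > 2S cells with TBX18 and 3.77% with GFP. After each cell was thinned to 5000 UMIs, Myh6 was found in 29.1% of TBX18 cells (28.0 to 30.2) and in 43.2% of GFP cells (41.7 to 44.7). Without thinning these shares were 61.9% and 76.8%, and in M > 2S cells the thinned shares were 99.5% and 99.8%. In thinned cells Tnnt2 was found in 69.4% of TBX18 cells and 64.4% of GFP cells, the reverse order of its CPM, so no order is read from it. Whether the sarcomere counts came from these cells' own RNA, from doublets or from free RNA was not tested.

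Each virus left its own RNA in the class, at a lower level than in M > 2S cells. EGFP, the reporter of the GFP virus, was at 20.8 CPM in the class of the GFP library, from 1462 UMIs, and at 163 CPM in its M > 2S cells. It was found in 12.6% of cells of the class, in 5.62% after thinning to 5000 UMIs (4.94 to 6.36), and in 28.7% of thinned M > 2S cells. In the TBX18 library EGFP had 0 UMIs in the class, where 3 counts correspond to 0.0262 CPM. The human TBX18 transgene, hTBX18, was at 1.19 CPM in the class of the TBX18 library, from 136 UMIs, and at 9.10 CPM in its M > 2S cells. It was found in 1.39% of cells of the class, in 0.584% after thinning (0.419 to 0.791), and in 3.77% of thinned M > 2S cells. ZsGFP, another virus feature, was at 1.11 CPM and had 0 UMIs in the GFP library, as did hTBX18. Dsred, hSHOX2 and hTBX3 had 0 UMIs in both classes of all 3 day 14 libraries. No cell type that lacks the virus could be named, so free virus RNA in these shares was not measured.

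Gene expression over the whole table was close between the libraries, with a tail of strongly different genes. For the 5262 genes that averaged 20 CPM or more, the log2 ratios of TBX18 over GFP, with 0.5 CPM added to each level, had a standard deviation of 0.50 and a median of 0.13. Their 5th percentile was -0.40 and their 95th percentile 0.70, and 96.8% of genes lay within 2-fold. A gene was counted as different where its ratio was at least 2-fold and its interval excluded 0. By that rule 139 genes, 2.64% of those tested, were higher with TBX18, and 31 genes, 0.589%, were lower. The interval removed none of the genes beyond 2-fold, so these counts rest on the 2-fold limit alone. The lower genes include Actc1 and Myh6, whose levels entered the choice of the class. Under median-of-ratios scaling the split was 111 higher and 51 lower, of 5122 genes tested. The asymmetry grew with the size of the difference, with 41 genes at least 4-fold higher and 3 at least 4-fold lower.

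**Figure D3:**
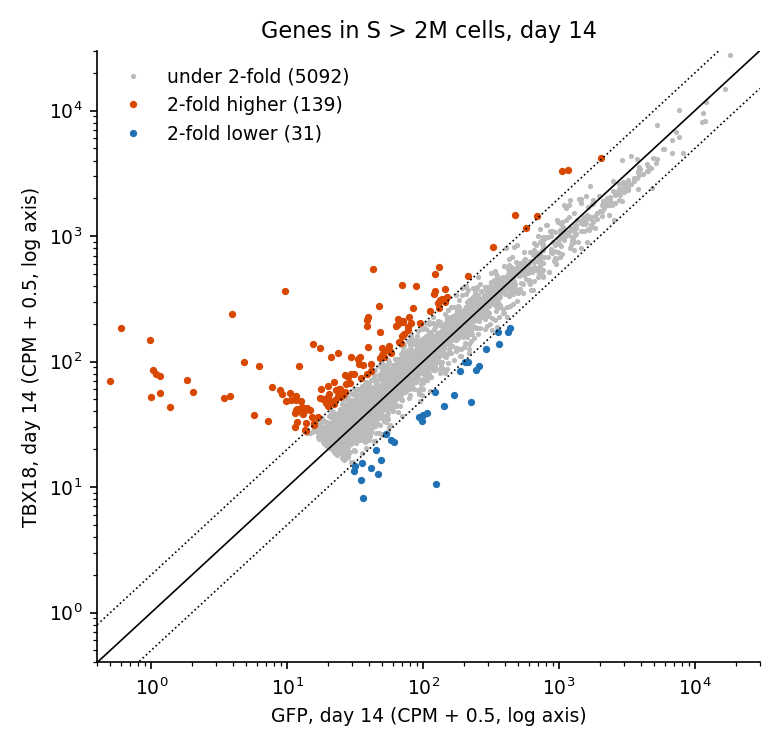
Level of each of 5262 genes in S > 2M cells of the GFP library (x axis) and the TBX18 library (y axis) at day 14, in CPM plus 0.5 on log axes, with lines at equality and 2-fold. The 139 genes higher with TBX18 (orange) include a group near 0 with GFP, and the 31 lower genes (blue) lie closer to the 2-fold line.

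Differences were found at every level of expression. Among 3799 genes with a mean of 20 to 100 CPM, 94 were higher (2.47%) and 19 lower (0.50%). Among 1290 genes from 100 to 1000 CPM, 41 were higher (3.18%) and 12 lower (0.930%). Of the 173 genes at 1000 CPM or more, 4 were higher and 0 lower, and these 4 lay between 1442 and 4162 CPM with TBX18 and between 688 and 2026 CPM with GFP. The median log2 ratio of that most abundant group was -0.23, while it was 0.15 in the lowest group.

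The same comparison gave fewer different genes at day 3 and more in M > 2S cells. At day 3, in other libraries, 43 of 4340 genes (0.991%) were higher with TBX18 and 41 (0.945%) were lower in S > 2M cells. In M > 2S cells at day 14, 202 of 4761 genes (4.24%) were higher and 52 (1.09%) lower. Of the 139 genes higher at day 14, 74 were tested at day 3, where 2 were higher and 6 lower. The 2 shared genes are 1.44% of the day 14 list and 4.65% of the day 3 list. These shares are over each whole list, whether or not a gene was tested at the other day. Of the 31 lower genes, 20 were tested at day 3, where 3 were lower and 4 higher. Of the same 139 genes, 45 were tested in M > 2S cells of the same libraries, where 19 were higher and 1 lower. Differences between these counts were not tested, and the cells deposited at day 3 spanned a wider range of genes per cell.

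Genes were also grouped by where they were expressed in another library, GFP at day 3, with the 6 genes of the rule left out. In that library 486 of the tested genes were at least 4-fold higher in S > 2M than in M > 2S cells. Of these collagen-side genes 28 were higher with TBX18 at day 14 (5.76%) and 5 lower (1.03%), with a median log2 ratio of 0.13. Of the 182 sarcomere-side genes, 4-fold higher in M > 2S cells, 2 were higher (1.10%) and 17 lower (9.34%), with a median of -0.021. Of 3259 genes with less than a 4-fold preference, 25 were higher (0.767%) and 2 lower, with a median of 0.13. Over all 3927 genes placed in this way, 55 were higher (1.40%) and 24 lower (0.611%), with a median of 0.12. The share of higher genes was thus above that of all placed genes on the collagen side and below it elsewhere, and the share of lower genes was highest on the sarcomere side, by counts that carry no test. Only 55 of the 139 higher genes could be placed.

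The 15 genes that led the higher direction were almost silent with GFP. Genes were ranked by the end of the interval nearest 0. With GFP these 15 lay between 0 and 9.13 CPM, and 9 of them were under 1 CPM. With TBX18 they lay between 43.2 and 363 CPM, with a median of 76.2 CPM. They were chosen for this difference, so the values describe it and do not test it. The first, ENSRNOG00000000419, had 7913 UMIs in the class with TBX18, a level of 69.0 CPM, and 0 UMIs with GFP. The lower end of the 95% interval of its log2 ratio was 10.36. The next, ENSRNOG00000046699, had 21236 UMIs (185 CPM) with TBX18 and 7 UMIs (0.0998 CPM) with GFP, a log2 ratio of 10.86 (9.81 to 12.17). This ratio was 13.35 with S > 50M, 11.96 in thinned cells and 5.22 with a pseudocount of 5 CPM. No other library came near either level in S > 2M cells. ENSRNOG00000000419 was at 0.109 CPM with A83-01, at 0.192 CPM with TBX18 at day 3 and had 0 UMIs with GFP at day 3. ENSRNOG00000046699 was at 0.133, 1.92 and 0.873 CPM in the same order.

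These 15 genes were also read in other libraries and in M > 2S cells. With A83-01 added to TBX18 all 15 were below their TBX18 level, from 0.0726 to 39.1 CPM with a median of 4.84 CPM, as were 62.6% of all tested genes. There 7 of the 15 were under 10% of their TBX18 level, and 4 were at or under their GFP level. These 2 comparisons share the TBX18 library, in which the genes were chosen for being high, so lower values elsewhere follow in part from that choice. At day 3 their median was 1.81 CPM with TBX18 and 1.27 CPM with GFP over the 14 genes measured then. Of these 14, 10 were above GFP, while the median log2 ratio of all genes tested at day 3 was -0.085. With TBX18 5 of the 14 were under 1 CPM and with GFP 7, so no direction is read from this count. In M > 2S cells of the TBX18 library at day 14 the 15 genes lay between 1.71 and 35.4 CPM, each under its level in S > 2M cells. In M > 2S cells 76.8% of all genes tested there had a log2 ratio of TBX18 over GFP above 0. Among the 15, the interval of this ratio lay above 0 for 14 and above the median of all genes there, 0.22, for 13. For ENSRNOG00000000419 it included 0, at 0.42 (-0.17 to 1.02) from 47 and 53 UMIs. The M > 2S level with TBX18 was 2.76% to 62.0% of the S > 2M level, with a median of 6.97%. The genes were chosen for a high S > 2M level with TBX18, so lower M > 2S levels follow in part from that choice. For comparison, the collagen genes in M > 2S cells were at 3.69% of their level in S > 2M cells.

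**Figure D4:**
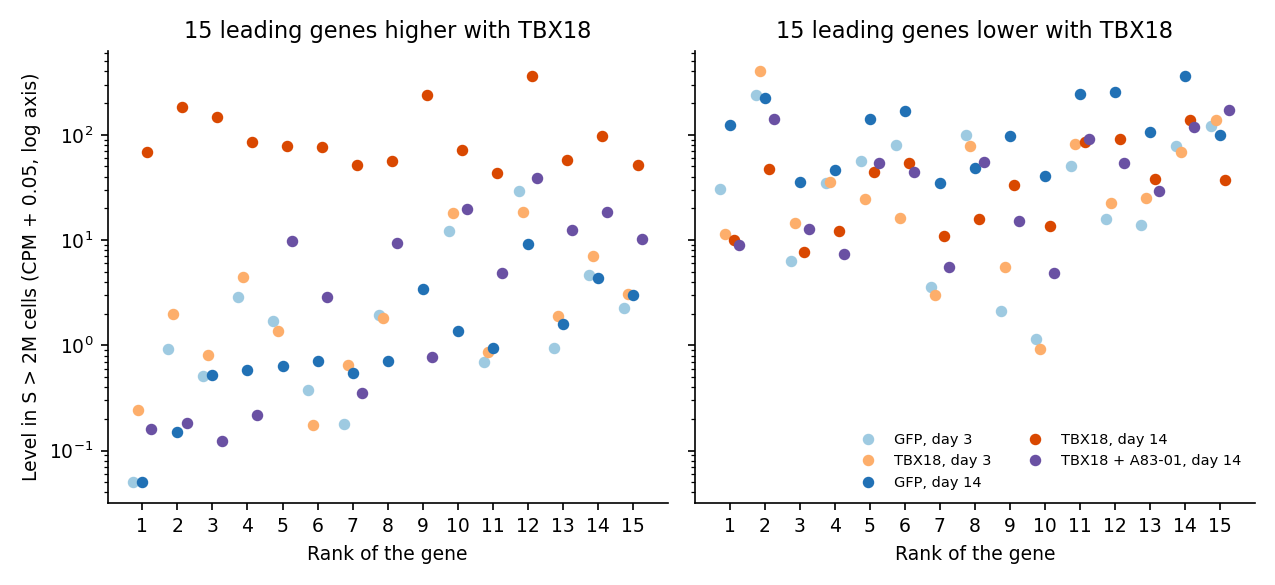
Level in S > 2M cells (y axis, CPM plus 0.05 on a log axis) of the 15 leading genes higher (left) and lower (right) with TBX18 at day 14, by rank, in the 5 libraries; the gene at rank 9 on the left was not measured at day 3. On the left, TBX18 at day 14 lies between 43.2 and 363 CPM and every other library at or below 39.1 CPM.

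The leading genes were then counted in single cells. The genes were chosen in these TBX18 and GFP cells at day 14, so the gap between them describes the choice and is not a test. With each cell thinned to 5000 UMIs, which left out 4 TBX18 and 2 GFP cells, 87.6% of TBX18 cells (86.8 to 88.4) had a UMI of at least 1 of the 15 genes. With GFP this share was 8.77% (7.94 to 9.67). At least 3 of the genes were found in 56.9% of TBX18 cells and 0.237% of GFP cells, and at least 5 in 32.8% and 0.0711%. At least 8 were found in 10.2% of TBX18 cells and in 0 of 4217 GFP cells, a count that allows up to 0.0874%. With A83-01, 35.1% of cells had at least 1 and 0.394% at least 5. At day 3, over 14 genes, 20.8% of TBX18 cells and 21.0% of GFP cells had at least 1. In M > 2S cells of the TBX18 library at day 14 the shares for at least 1 and at least 5 were 32.2% and 0.644%. Taken singly, each gene was found in 12.8% to 64.0% of thinned TBX18 cells, with a median of 20.9%, and 64.0% belongs to the gene at rank 12. Free RNA of these genes was not measured.

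**Figure D5:**
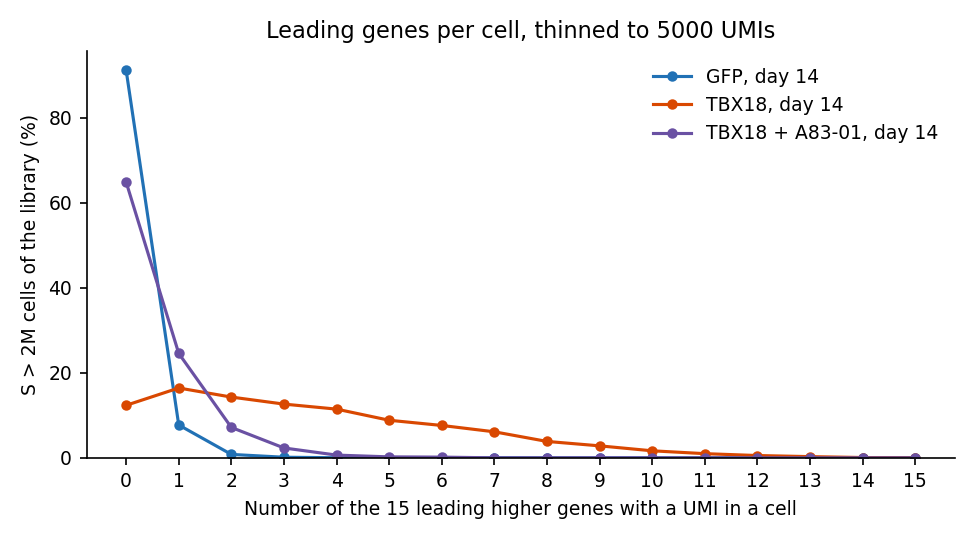
Percentage of S > 2M cells of each day 14 library (y axis) by the number of the 15 leading higher genes with a UMI in a cell thinned to 5000 UMIs (x axis). With TBX18, 32.8% of cells had at least 5 of the genes, against 0.0711% with GFP and 0.394% with A83-01. The genes were chosen for their difference between the TBX18 and GFP libraries.

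Within the TBX18 library the leading genes tended to be found in the same cells, for most pairs weakly. Over the 105 pairs of these genes, the correlation r across 7023 cells ran from 0.037 to 0.50, with a median of 0.16. Of the 1118 thinned cells with a UMI of ENSRNOG00000000419, 45.7% (42.8 to 48.7) had a UMI of ENSRNOG00000046699, while 15.7% (14.8 to 16.7) of the other 5905 cells did. The median number of the other 14 genes per cell was 6 and 2. The cells with ENSRNOG00000000419 were not deeper, at a median of 14887 UMIs before thinning against 15638 UMIs. Cells are not replicates, and these shares describe 1 library.

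The leading genes were found in a larger share of cells with a virus UMI than without, with intervals that overlapped in part. This difference was not tested. In the class of the TBX18 library, 157 thinned cells had an hTBX18 or ZsGFP UMI before thinning, and 6866 had none. At least 5 leading genes were found in 40.8% of the former (33.0 to 48.9) and 32.6% of the latter (31.5 to 33.7). The median numbers of leading genes were 4 and 3. The cells with a virus UMI were deeper, at a median of 17750 UMIs against 15446.5, and at this depth the lack of a virus UMI does not show that a cell escaped the virus.

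The 15 genes that led the lower direction formed a sarcomere-side and a collagen-side group. With GFP they lay between 34.6 and 362 CPM and with TBX18 between 7.63 and 137 CPM, so every gene remained detectable. Of the 15 genes, 10 were higher in M > 2S than in S > 2M cells of both libraries, and Myh6 was among these at rank 14. ENSRNOG00000004583 came first, at 10.0 CPM with TBX18 and 123 CPM with GFP, a log2 ratio of -3.62 (-3.71 to -3.53). With the class limited to S > 50M the ratio was -2.83. The gene was also lower with TBX18 in M > 2S cells, at 557 against 3174 CPM, and in S > 2M cells at day 3, at 11.3 against 30.8 CPM. ENSRNOG00000008176 followed at 47.5 and 223 CPM, a log2 ratio of -2.23 (-2.28 to -2.19), which was -1.71 with S > 5M and -1.38 with S > 50M. In M > 2S cells it was lower as well, at 2356 against 6772 CPM. At day 3 it stood the other way in S > 2M cells, at 401 CPM with TBX18 and 238 CPM with GFP.

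The sarcomere-side leading genes were also measured against their level in M > 2S cells. Over these 10 genes, the level in S > 2M cells was 3.00% to 4.87% of that in M > 2S cells with GFP (median 3.86%) and 1.34% to 2.12% with TBX18 (median 1.69%). The sum of the 3 sarcomere genes of the rule gave 3.77% and 2.32%. The 10 genes were chosen for being lower with TBX18 in S > 2M cells, so their fall follows in part from that choice. Over the 182 sarcomere-side genes grouped by GFP at day 3, the measure was 19.0% with GFP and 19.1% with TBX18. Another setting left out all genes at least 4-fold higher in M > 2S cells of GFP at day 3, those of the rule included. Of the 31 lower genes, 12 were then left. With the class limited to S > 50M, 16 genes were lower. The part of myocyte RNA in the lower genes was not tested.

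The 5 collagen-side leading genes, higher in S > 2M than in M > 2S cells, made up the rest. They lay between 35.4 and 142 CPM with GFP, with a median of 48.6 CPM, and between 7.63 and 43.9 CPM with TBX18, with a median of 15.9 CPM. Their log2 ratios ran from -2.22 to -1.43. With A83-01 added their median was 53.3 CPM, and 4 of the 5 were above their TBX18 level, in a comparison that shares the library in which they were chosen for being low. In thinned cells, at least 3 of the 5 genes were found in 9.96% of GFP cells (9.07 to 10.90) and in 0.498% of TBX18 cells (0.347 to 0.692). The genes were chosen in these same cells, so this gap describes the choice and is not a test.

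The genes different between TBX18 and GFP were also read in the library with A83-01 added to TBX18. Of the 139 higher genes, 123 were below their TBX18 level with A83-01, 86 of them by over 2-fold, and 2 were above it by over 2-fold. Of the 31 lower genes, 18 were below their TBX18 level with A83-01, 3 of them by over 2-fold, and 7 were above it by over 2-fold. Over all 5262 tested genes, 62.6% were below their TBX18 level, 7.91% by over 2-fold, and 1.62% were above it by over 2-fold. Both sets were chosen in the TBX18 library that enters both comparisons, so these counts are set out as values and not read as an effect of the inhibitor.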

How the data were processed

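Droplet-based 3' single-cell libraries were made from trypsin-digested cultures, per the labels' protocols. The submitters' processing notes name STAR 2.7.8a, Partek and Rnor_6.0. The filters on cells and genes are not given in the sources used here, but the deposited cells differed in range between the days. They held 1993 to 5592 genes and up to 33982 UMIs in the day 14 libraries. In the day 3 libraries they held 28 to 7758 genes and up to 97247 UMIs. The authors deposited the day 3 tables as estimated counts of UMIs and the day 14 tables as log2 of CPM plus 1 per cell, judged from the values. The planned analysis assumed counts throughout, so UMIs were recovered at day 14 as multiples of the value that occurs most often in a cell, and 99.7% of these came out whole to within 0.05. Recovery and gene calls were tested on simulated data. UMIs were summed over the cells of a class and library, and scaled to CPM by the class total. Ratios of single genes carry no pseudocount, and counts of genes use 0.5 CPM and a minimum mean of 20 CPM over both libraries. Intervals are exact at 95% (Poisson for sums, conditional binomial for ratios, Clopper-Pearson for shares). Cells thinned to 5000 UMIs left out shallower cells. Named genes were those of the class rule, the virus features and the first 15 per direction by the interval end nearest 0, with at most 2 IDs printed each. The 41 gene lists by symbol could not be applied, because no ID could be named. The members and lists were chosen with earlier results of these data known. Python 3.11.15, numpy 2.4.6, scipy 1.17.1, pandas 2.3.3 and scanpy 1.11.5 (for doublet scores) were used.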

Additional observations from a re-analysis of the deposited data

Results flagged for a closer look

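Several genes stood in opposite directions in 2 settings of TBX18 against GFP. None of these differences was tested, since each group has 1 library. Col1a1, Col1a2, Col3a1, Tnnt2 and Actc1 entered the choice of the classes, so their directions are a description and not a test. Col1a1, Col1a2 and Col3a1 were lower with TBX18 in S > 2M cells at day 14 (log2 ratios -0.17, -0.26 and -0.045) and higher in M > 2S cells of the same libraries (1.20, 1.15 and 1.25). Tnnt2 was lower in S > 2M cells at day 14 (-0.31) and higher in M > 2S cells (0.16), where median-of-ratios scaling turned it to -0.058. Tnnt2 and Actc1 were higher with TBX18 in S > 2M cells at day 3 (0.35 and 0.69) and lower at day 14 (-0.31 and -1.05), but the day 14 direction of Tnnt2 depended on the limits of the class. ENSRNOG00000008176 was higher with TBX18 in S > 2M cells at day 3 (0.75) and lower at day 14 (-2.23).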

How the results depend on the processing

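No paired analysis was possible because each group has 1 library. The share of the class was 69.9% with GFP and 85.9% with TBX18 for S > M, 62.2% and 82.5% for S > 5M, and 50.2% and 59.6% for S > 50M, and it was 67.3% with GFP over cells of at least 10000 UMIs. The count of 139 higher genes, of 5262 tested, became 45 of 1463 at a minimum of 100 CPM and 513 of 16878 with no filter on low values. The 31 lower genes became 12 and 155 in those settings, 16 for S > 5M, 16 for S > 50M and 51, of 5122 tested, under median-of-ratios scaling. Without the genes on the sarcomere side in GFP at day 3, 12 were left. The standard deviation of the log2 ratios was 0.41 with a pseudocount of 5 CPM. The Tnnt2 ratio of -0.31 reversed to 0.29 for S > 5M, 0.20 for S > 50M and 0.035 without the top 6% of doublet scores. The class limit of S > 50M and the removal of sarcomere-side genes were chosen after seeing the data. No other of the 9 single-gene ratios recomputed changed direction under the settings run. Leaving out cells with markers of leukocytes, endothelium or division was not run, as those genes could not be named. The cause of these shifts was not tested. With 1 library per group, depth limits single cells and virus UMIs more than the summed levels, and no spread between cultures is known.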
